A study of Mus musculus with 8 samples.

Results

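miR-221 and miR-222 are microRNAs (miRNAs), short RNAs that guide the silencing of messenger RNAs, and they share a target in Kit. The members described here are every listed miRNA named miR-221 or miR-222 with any strand suffix, chosen by name alone. These are miR-221-3p, miR-222-3p and miR-221-5p, 3 of the 190 miRNAs listed. They were counted by small RNA sequencing in LSK cells, the bone marrow fraction that lacks lineage markers and carries Sca1 and cKit and that holds the blood stem cells and multipotent progenitors. The 4 libraries of db/db mice (strain label B6.BKS(D)-Leprdb/J) came from animals homozygous for the db allele of the leptin receptor gene Lepr. The 4 libraries of db/m mice (B6.BKS(D)-Leprdb/+ db/m) came from heterozygotes, so the controls also carry 1 db copy and no wild type animals enter. All are labelled as 6 months diabetic, although db/m mice are the control strain. Sex and age in weeks are not given in the labels. All titles read db/m, so the genotype labels set the groups.

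miRNAs are cut from a hairpin in which the 5p and the 3p arm pair, and usually 1 arm is kept and loaded into Argonaute. The loaded arm finds its targets mainly through its seed, bases 2 to 8 from its 5′ end. Kit is the receptor for stem cell factor and is 1 of the surface proteins by which LSK cells are sorted. In human cord blood progenitors and human endothelial cells, miR-221-3p and miR-222-3p are known to lower KIT, and in human tumour cells the cell cycle inhibitors CDKN1B and CDKN1C. During human erythroid differentiation both are known to decline. Comparing db/db with db/m asks whether these miRNAs differ in level in Kit-bearing cells of diabetic mice.

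The mature sequences of RefSeq (GRCm38.p6) are shown because the shared seed joins the pair, with the seed in capitals. All 3 members were matched in RefSeq.
miR-221-3p: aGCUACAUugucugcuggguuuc
miR-222-3p: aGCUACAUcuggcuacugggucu
miR-221-5p: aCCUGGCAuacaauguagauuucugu
The 3p arms first differ at position 9, counted from the 5′ end, and are identical at 11 of 23 positions when set side by side without gaps. Alignments with gaps were not made. Of the 163 listed miRNAs with a RefSeq entry, these 2 alone hold the seed GCUACAU. 1 further RefSeq entry with that seed, miR-1928, was not analysed here.

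Both hairpins lie on the minus strand of chromosome X in GRCm38. Mir221 spans chrX:19146294-19146388 and Mir222 spans chrX:19146893-19146971, with 504 bases between them. Whether another gene is annotated over either is not reported here. Capitals in the hairpins below mark the arms that were counted, to show where the strands sit.
Mir221: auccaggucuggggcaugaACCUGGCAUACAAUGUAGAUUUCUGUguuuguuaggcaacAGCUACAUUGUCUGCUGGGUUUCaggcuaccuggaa
Mir222: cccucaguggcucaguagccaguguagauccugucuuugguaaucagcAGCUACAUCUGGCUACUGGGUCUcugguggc

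The 3′ UTR of Kit was searched for the letters that pair with this seed, ATGTAGC, and for the same letters followed by A, ATGTAGCA. The search ran on the transcript strand in the longest GENCODE M21 3′ UTR of each gene. Kit held ATGTAGCA at 2 places, both on the plus strand of chromosome 5, shown with the match in capitals.
Kit site at chr5:75654992-75654999: atgatgggagatatATGTAGCAagactaga
Kit site at chr5:75656523-75656530: ttgtaaatattgaaATGTAGCAataatgtc
Of 1346 mouse 3′ UTRs within 10% of the 2177 bases of Kit, 5.2% held ATGTAGCA at least once and 1, that of Kit, held it 2 times. Over all 21027 3′ UTRs the share with ATGTAGCA was 3.5%, and 32 held it 2 times or more. Cdkn1b and Cdkn1c, which encode the cell cycle inhibitors p27 and p57, each held ATGTAGCA once.
Cdkn1b site at chr6:134924431-134924438 (plus strand): tctaaaagcattggATGTAGCAttgcgcaa
Cdkn1c site at chr7:143458925-143458932 (minus strand): gggacctttcgttcATGTAGCAggaaccgg
Among 3′ UTRs within 10% of their lengths, 9.83% held ATGTAGCA for Cdkn1b and 1.19% for Cdkn1c. Cdkn1b also held TGTAGCA, a match to seed bases 2 to 7 followed by A, at a further 2 places. A match of letters is a description of the sequence, and no messenger RNA was measured in these libraries.

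Library totals ran from 36145 to 54228 counts in db/db and from 13273 to 77834 in db/m. The lowest total is that of db/m replicate 2, in which 180 of the 190 miRNAs had a count, against 189 or 190 in every other library. Levels are given as CPM, counts over the TMM-scaled library size, and error intervals on single libraries cover counting error only. Of the general blood cell marker miRNAs, miR-142a-3p averaged 12850 ± 2623 CPM in db/db and 11020 ± 3688 CPM in db/m (SD, n = 4 each). The other arm, miR-142a-5p, lay on the other side, at 3033 ± 469 CPM in db/db and 3631 ± 410 CPM in db/m. Whether each library is a separate animal is not stated. The p-values and the intervals of fold changes thus cover the spread between these samples, which may be technical.

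miR-221-3p had the most counts of the members and was present at a like level in both genotypes. It stood at 7336, 5325, 6295 and 4924 CPM in db/db replicates 1 to 4, from 421, 274, 233 and 223 counts. In db/m replicates 1 to 4 it stood at 6677, 4890, 6669 and 5325 CPM, from 252, 64, 496 and 278 counts. The groups overlapped along nearly their whole range, and db/db held both the highest library and 1 of the 2 lowest. Means were 5970 ± 1077 CPM in db/db and 5890 ± 921 CPM in db/m (SD, n = 4 each). The log2 fold change was 0.01 (SE 0.20, edgeR quasi-likelihood test, adjusted p = 0.978), with a 95% interval from -0.42 to 0.44. On the linear scale that interval runs from 1.34-fold lower to 1.36-fold higher in db/db, so larger shifts in either direction lie outside it. It takes the 8 libraries as separate samples, which the labels do not state.

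miR-222-3p, the cluster partner with the same seed, was lower in counts and gave the same picture. It stood at 1725, 1147, 1621 and 1303 CPM in db/db replicates 1 to 4, from 99, 59, 60 and 59 counts. In db/m replicates 1 to 4 it stood at 1616, 1834, 1506 and 1245 CPM, from 61, 24, 112 and 65 counts. The groups overlapped, with the lowest library in db/db and the highest in db/m. That highest value, in db/m replicate 2, rests on 24 counts and has a 95% Poisson interval from 1175 to 2729 CPM, which covers every other library but the lowest. Means were 1449 ± 270 CPM in db/db and 1550 ± 245 CPM in db/m (SD, n = 4 each). The log2 fold change was -0.08 (SE 0.24, edgeR adjusted p = 0.932), with a 95% interval from -0.59 to 0.44, or from 1.51-fold lower to 1.35-fold higher in db/db.

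miR-221-5p, the opposite arm of the miR-221 hairpin, was near the limit of detection. It had 6, 7, 3 and 4 counts in db/db replicates 1 to 4, against 6, 0, 8 and 8 counts in db/m replicates 1 to 4. The groups overlapped, and db/m replicate 2 alone had no count. Taking 3 counts as the limit for a count of 0, its depth allows up to 229 CPM, and the 95% Poisson interval in the plot of levels reaches 282 CPM. The level was 103 ± 24.4 CPM in db/db and 105 ± 73.7 CPM in db/m (SD, n = 4 each). It did not pass the minimum count and was not tested here. The authors' deposited table, which covers the 190 listed miRNAs, gives it a log2 fold change of -0.30 at a false discovery rate of 0.854.

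**Figure D1:**
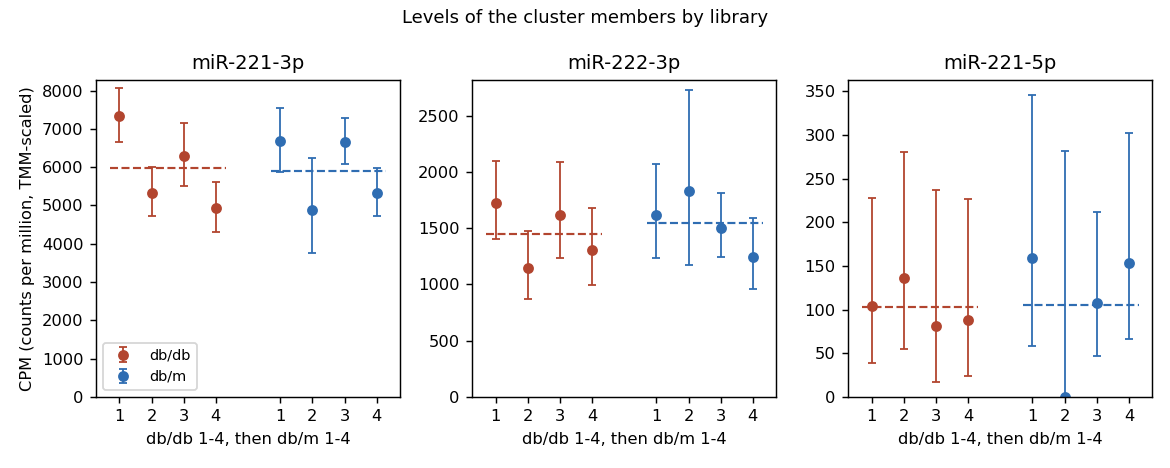
Level of each cluster member in every library, in CPM on a linear axis from 0, with db/db on the left and db/m on the right. Points are libraries, bars are 95% Poisson intervals of the counts and dashed lines are group means. The genotypes overlap for all 3 members, and miR-221-3p averages 5970 CPM in db/db and 5890 CPM in db/m.

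Neither tested member passed an adjusted p of 0.05, where 4.86% of the 144 tested miRNAs did (7, of which 4 were higher and 3 lower in db/db). Groups that do not overlap were seen for 17.4% of tested miRNAs and for neither of these. By size of the fold change, only 3 tested miRNAs lay nearer to 0 than miR-221-3p, and 24 lay nearer than miR-222-3p. Their SEs of 0.20 and 0.24 were below the median SE of 0.32 over all tested miRNAs, so the pair was measured more closely than most. The authors' deposited table gives log2 fold changes of -0.08 for miR-221-3p (false discovery rate 0.879) and -0.15 for miR-222-3p (0.847). The sign of both values turned in some alternative settings and neither has a direction that can be read.

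For miR-221-3p, some libraries of the same genotype differed by more than counting error, in both genotypes. Its db/db replicate 1 has a 95% Poisson interval from 6652 to 8071 CPM and db/db replicate 4 one from 4298 to 5614 CPM, which do not meet. Nor do those of db/m replicate 3 (6095 to 7283 CPM) and db/m replicate 4 (4718 to 5990 CPM). For miR-222-3p, with fewer counts, the intervals of all libraries within a genotype overlapped. The coefficient of variation between libraries was 18.1% in db/db and 15.6% in db/m for miR-221-3p, and 18.6% in db/db and 15.8% in db/m for miR-222-3p. Libraries share a number in their titles, ending 77 or 75 in db/db and 78 or 79 in db/m, whose meaning is not stated. Pooled by that number, miR-221-3p stood at 6385 and 5540 CPM in db/db and at 6486 and 5325 CPM in db/m. For miR-222-3p the pooled levels were 1452 and 1446 CPM in db/db and 1573 and 1245 CPM in db/m. For miR-221-3p the 2 numbers of a genotype were farther apart than the genotype means. For miR-222-3p this held in db/m, while the 2 db/db numbers lay close together. No number occurs in both genotypes, so the genotypes can be compared between numbers but not within one. With libraries summed by number, 2 sums a genotype, the log2 fold change was 0.0032 for miR-221-3p (edgeR adjusted p = 0.989) and 0.02 for miR-222-3p (edgeR adjusted p = 0.974).

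Among the 190 listed miRNAs, miR-221-3p ranked 30th by mean level over the 8 libraries, miR-222-3p 64th and miR-221-5p 185th. Sequences differ in how well they are ligated and copied, so an order between miRNAs is one of counts. Next above miR-221-3p stood let-7g-5p, with 6356 ± 817 CPM in db/db and 7247 ± 636 CPM in db/m. Next below stood miR-423-5p, with 3088 ± 859 CPM in db/db and 8114 ± 1812 CPM in db/m (SD, n = 4 each). Over the 8 libraries these means lay within 1 SD of that of miR-221-3p (5930 ± 929 CPM). miR-222-3p (1500 ± 245 CPM over 8 libraries) stood between miR-690 (1519 ± 881) and miR-181b-5p (1279 ± 261), also within 1 SD. miR-221-5p (104 ± 50.8 CPM) stood between miR-450b-5p (106 ± 50.8) and miR-466d-3p (102 ± 58.9), with no separation.

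**Figure D2:**
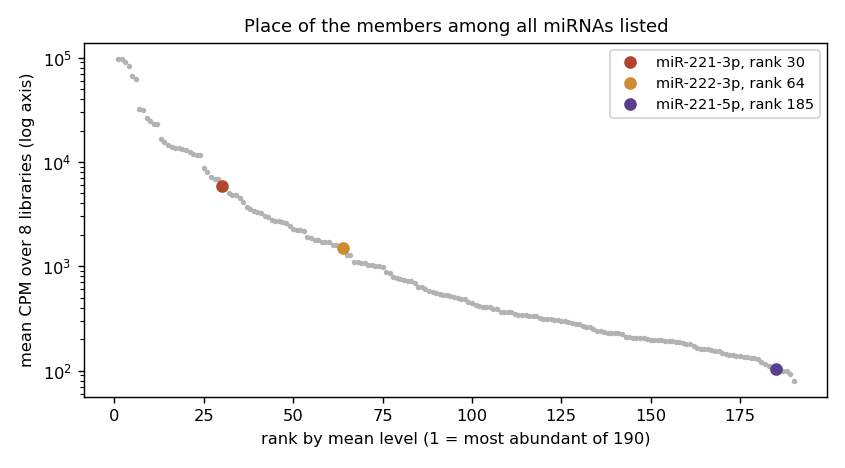
Mean level of the 190 listed miRNAs over 8 libraries, in CPM on a log axis, against rank from the most to the least abundant. Coloured points mark miR-221-3p at rank 30, miR-222-3p at rank 64 and miR-221-5p at rank 185.

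Together the 2 seed partners took 0.766% ± 0.151 of the counts of all listed miRNAs in db/db and 0.711% ± 0.0772 in db/m (SD, n = 4 each). Their summed level was 9061, 6471, 7916 and 6226 CPM in db/db replicates 1 to 4, against 8293, 6724, 8175 and 6571 CPM in db/m replicates 1 to 4. Replicates 1 and 3 of both genotypes were the 4 highest libraries, and replicates 2 and 4 the 4 lowest, so the genotypes overlapped. The mean was 7418 ± 1325 CPM in db/db and 7441 ± 919 CPM in db/m (SD, n = 4 each), a description with no test.

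The ratio of the partners was about 4 counts of miR-221-3p per count of miR-222-3p in every library but db/m replicate 2. It was 4.25, 4.64, 3.88 and 3.78 in db/db replicates 1 to 4, and 4.13, 2.67, 4.43 and 4.28 in db/m replicates 1 to 4. The genotypes overlapped, and db/m replicate 2 lay below all other libraries. Its 95% exact (Clopper-Pearson) interval, from 1.65 to 4.46, reached the value of every library but db/db replicate 2. Summed over libraries, with intervals that cover counting error only and leave out the spread between libraries, the ratio was 1151 to 277 counts, or 4.16 (95% exact interval 3.64 to 4.76), in db/db and 1090 to 262 counts, or 4.16 (3.63 to 4.78), in db/m.

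The log2 ratio averaged 2.04 ± 0.14 in db/db and 1.92 ± 0.35 in db/m (SD, n = 4 each). The difference of 0.12 did not pass the threshold (exact two-sided permutation p = 0.771, and 0.914 after Benjamini-Hochberg adjustment over 2 ratios). Without db/m replicate 2 the difference was -0.05 (exact permutation p = 0.543). miR-221-3p had more counts than miR-222-3p in 8 of 8 libraries. Over these the mean log2 ratio was 1.98 ± 0.25, or 3.94-fold (SD, n = 8), and differed from 0 by an exact two-sided sign-flip permutation test (p = 0.00781, the smallest that 8 libraries allow). With libraries of 1 title number summed it was 2.05, and 4 such sums cannot give an exact permutation p below 0.125.

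**Figure D3:**
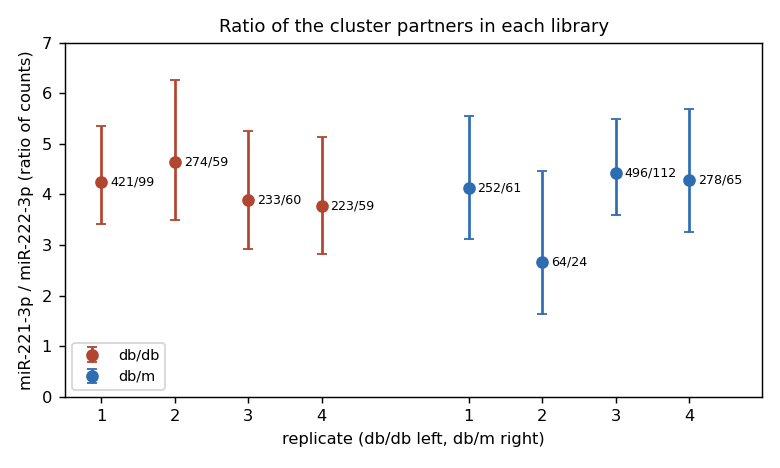
Ratio of miR-221-3p to miR-222-3p counts in each library, on a linear axis from 0, with db/db on the left and db/m on the right. Bars are 95% exact binomial intervals and the labels give both counts. The ratios lie between 3.78 and 4.64 in db/db, and between 2.67 and 4.43 in db/m, where replicate 2 is the lowest with 64 against 24 counts.

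The arms of the miR-221 hairpin were unequal in every library. Of the counts from both arms, the 5p arm took 1.41%, 2.49%, 1.27% and 1.76% in db/db replicates 1 to 4. In db/m replicates 1, 3 and 4 it took 2.33%, 1.59% and 2.80%, and in replicate 2 it had 0 of 64 counts, which allows up to 4.69% by the limit of 3 counts and 5.60% by the exact 95% interval. The 3p arm was thus the more abundant in both genotypes, with 1151 against 20 counts in db/db and 1090 against 22 in db/m. The log2 ratio of 3p to 5p averaged 5.73 ± 0.40 in db/db and 5.80 ± 0.88 in db/m (SD, n = 4 each). The difference of -0.07 did not pass the threshold (exact two-sided permutation p = 0.914, and 0.914 after adjustment). The ratio was highest in db/m replicate 2, which had no 5p count, so its value there rests on the pseudocount of 0.5. Without that library the difference was 0.33 (exact permutation p = 0.314).

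The partners were also followed from library to library. Over the 8 libraries log2 CPM of miR-221-3p and miR-222-3p had a Pearson r of 0.431 (exact permutation p = 0.267) and a Spearman rho of 0.18 (exact permutation p = 0.673). Without the 2 libraries farthest from the median of miR-221-3p, db/db replicate 1 and db/m replicate 2, r was 0.846 (n = 6, exact permutation p = 0.0917) and rho 0.638 (exact permutation p = 0.194). Without db/m replicate 2 alone, r was 0.89 (n = 7, exact permutation p = 0.0171) and rho 0.775 (exact permutation p = 0.0532). Both subsets were taken after the data were seen, and of their 4 values 1 passed 0.05. Both miRNAs share each library's scaling, and no genotype has enough libraries for a value of its own. This was the only such relation tested.

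The miRNAs with the pattern most like each tested member were ranked among the 144 tested miRNAs by Pearson r of log2 CPM over the 8 libraries, as a description. For miR-221-3p these were miR-674-5p (0.797), miR-140-3p (0.703), miR-106b-3p (0.676), miR-181a-5p (0.674) and miR-378c (0.657). For miR-222-3p they were miR-425-5p (0.746), miR-669c-5p (0.651), miR-361-5p (0.61), miR-374b-5p (0.593) and miR-421-3p (0.592). Several of these were sparse. Counts a library ran from 2 to 20 for miR-674-5p, 1 to 23 for miR-378c, 4 to 24 for miR-374b-5p and 4 to 14 for miR-421-3p. No miRNA stood on both lists. miR-222-3p was 30th on the list of miR-221-3p, and miR-221-3p was 16th on that of miR-222-3p. Ranked on deviations from the genotype means, 4 of the 5 for miR-222-3p stayed among its first 5, and 1 of the 5 for miR-221-3p did.

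Other miRNAs reported to target Kit were sparse in the table. Of miR-193a-3p, miR-193b-3p, miR-34a-5p, miR-494-3p and miR-218-5p, 1 was measured and tested here. That was miR-34a-5p, which p53 induces and which is reported to lower KIT in human colorectal cancer cells. It ran from 513 to 797 CPM in db/db, with a median of 693, and from 76.4 to 742 CPM in db/m, with a median of 369. The db/m range spans the db/db range apart from its top, and its lowest value is 1 count. The log2 fold change was 0.68 (SE 0.42, edgeR adjusted p = 0.361), with a 95% interval from -0.23 to 1.58. Without db/m replicate 1 it was 1.19 (edgeR adjusted p = 0.148), and with single libraries left out it ran from 0.47 to that value. In level miR-34a-5p (674 ± 118 CPM in db/db and 389 ± 285 CPM in db/m; SD, n = 4 each) stood below both 3p members.

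Of 6 other miRNAs reported to target Cdkn1b or Cdkn1c, all 6 were tested. In db/db 1 fell and 0 rose, against 2.08% lower and 2.78% higher among all tested. The list was chosen with earlier results of these data known, so its counts and signs are a description only. All 6 log2 fold changes were below 0 (median -0.29, against -0.03 over all tested; -0.11 without db/m replicate 1 and -0.18 under library totals), although under library totals those of miR-24-3p (0.0938) and miR-181a-5p (0.0354) were above 0. The 1 that fell was miR-148a-3p, a member of the miR-148/152 seed family, at 7496 ± 3471 CPM in db/db and 19820 ± 5297 CPM in db/m (SD, n = 4 each; log2 fold change -1.40, SE 0.33, edgeR adjusted p = 0.0299). That call was lost without db/db replicate 1 (adjusted p = 0.0968), db/db replicate 3 (0.0562), db/m replicate 1 (0.0945) or db/m replicate 4 (0.0676), and with title numbers summed (0.459) by edgeR. In these 5 settings the log2 fold change was -1.27, -1.54, -1.29, -1.46 and -1.25, in the same order. miR-152-3p, of the same family, had a log2 fold change of -0.38 (SE 0.34), and -0.0058 without db/m replicate 1. miR-92a-3p and miR-25-3p, which share a seed with each other, had -0.56 (SE 0.21, edgeR adjusted p = 0.136) and -0.20 (SE 0.16). With title numbers summed miR-92a-3p passed, at -0.72 (edgeR adjusted p = 0.000111). miR-24-3p and miR-181a-5p lay near 0, at -0.02 (SE 0.18) and -0.08 (SE 0.32), and the sign of each turned in some settings.

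**Figure D4:**
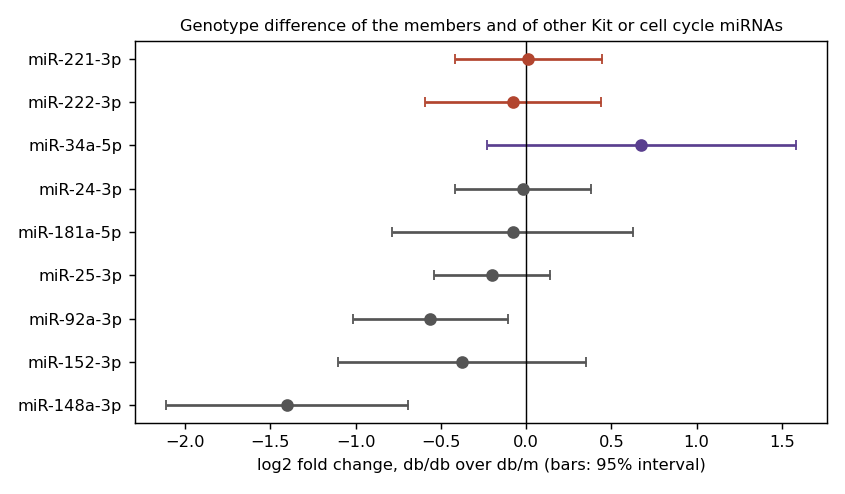
Log2 fold change of db/db over db/m for the 2 tested members (red), for miR-34a-5p (purple) and for the 6 miRNAs reported to target Cdkn1b or Cdkn1c (grey), with 95% intervals from edgeR. Both members lie close to 0, at 0.01 and -0.08, while miR-148a-3p lies at -1.40.

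The cluster was also set beside the other miRNAs of its chromosome. Of the 163 miRNAs matched in RefSeq, 26 have a hairpin on chromosome X, among them 3 with a further hairpin elsewhere, which cannot be told apart. Of the 19 that were tested 0 passed adjusted p of 0.05 by edgeR, with 6 values on the higher side, 13 on the lower side and a median log2 fold change of -0.06 (0.0434 under library totals) against -0.03 over all tested (0.0799). At unadjusted p under 0.05 there were 4 of the 19, beside 32 of the 144 over all tested. With title numbers summed, a setting in which 186 miRNAs were tested, 1 of the X-linked list passed, beside 15 of all 186. How many X-linked miRNAs were tested in that setting was not counted. That 1 was miR-92a-3p, which also has a hairpin elsewhere. The 2 members fall inside the X-linked range, which ran from -0.83 for miR-1198-5p to 0.87 for miR-542-5p.

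Markers of other cells were listed to show what else these sorted libraries could hold. miR-126a-3p and miR-126a-5p, the 2 arms of miR-126a, are known from endothelium and from blood stem cells. Both rose in db/db, with log2 fold changes of 1.38 (SE 0.25) and 1.60 (SE 0.28), each at an edgeR adjusted p of 0.00532. They are 2 of the 4 miRNAs called higher, which make up 2.78% of the 144 tested. Their summed level ran from 17640 to 41000 CPM in db/db and from 8237 to 12850 CPM in db/m. Endothelial cells are also known to carry miR-221 and miR-222. The part of endothelial RNA in the members' levels was not tested. For erythroid cells 1 of 6 list members was listed, miR-486a-5p, from 1108 to 5754 CPM in db/db and from 2252 to 3388 CPM in db/m. Of the myeloid list 1 of 2 was listed, miR-223-3p, from 6619 to 12740 CPM in db/db and from 7641 to 10360 CPM in db/m. Of the lymphoid list 1 of 2 was listed, miR-150-5p, from 2980 to 4107 CPM in db/db and from 3523 to 8864 CPM in db/m. Of the stromal list 2 of 5 were listed, summing to between 175 and 1236 CPM in db/db and between 76.4 and 498 CPM in db/m. The summed levels of these 4 lists overlapped between genotypes, and their part in the members' levels was not tested. Fewer cells of a type and less RNA per cell cannot be told apart in such libraries.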

How the data were processed

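Small RNA libraries (QIAseq miRNA, per the labels' protocols) were made from Trizol RNA of sorted LSK cells. The table the authors deposited holds raw counts per miRBase name, per the file headers. It also holds the authors' log2 CPM values per library and, for their DB against CTRL comparison, a signed fold change (read as a score), a log2 fold change, a p-value and an FDR, per the file headers. The submitters' processing notes name edgeR 3.41.9 and mm10. The aligner, any collapsing of molecular identifiers and any earlier filter were not given in the sources used here. 0 value columns were left without a sample.

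Genotypes were compared by edgeR 4.0.16 under R 4.3.3 (filterByExpr, minimum count 10 and minimum total 15, leaving 144 of 190 miRNAs with 99.3% of counts; TMM; robust glmQLFit and glmQLFTest; Benjamini-Hochberg). An SE is the log2 fold change over the square root of F, and intervals use the fit's degrees of freedom. Ratios used a pseudocount of 0.5 and exact permutations (70 assignments, or 256 sign assignments). Alternatives included DESeq2 1.42.0. The members, lists and tests were chosen with earlier results of these data known. Named miRNAs are the members, the Kit and cell cycle lists, rank neighbours, the 5 most alike per tested member and markers. miR-1198-5p and miR-542-5p were named after their values were seen.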

Additional observations from a re-analysis of the deposited data

Results flagged for a closer look

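In db/m replicate 2 the log2 ratio of miR-221-3p to miR-222-3p was 1.40, with the other 3 db/m libraries between 2.04 and 2.14 and the db/db libraries between 1.91 and 2.21. It was singled out because its gap to the nearest db/m library, over the range of the group, was 0.86, above Dixon's 95% critical value for 4 samples. Of 10 groups of 4 examined this was the only one flagged. Chance flags about 1 group in 20, a rate for each group and not for the whole search. The library also has the fewest counts, 13273 in all, with 64 and 24 for the pair. Its exact interval for the ratio, 1.65 to 4.46, overlaps those of all other libraries, and the part of depth in the low ratio was not tested.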

How the results depend on the processing

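Neither miR-221-3p nor miR-222-3p passed adjusted p of 0.05 in any of 15 alternatives by edgeR or DESeq2, with adjusted p from 0.687 to 0.989 and from 0.786 to 0.997. Their log2 fold changes ran from -0.11 to 0.15 and from -0.19 to 0.03. The sign turned for miR-221-3p with no filter (-0.0726) and without db/db replicate 1 (-0.112), db/m replicate 2 (-0.0656) or db/m replicate 4 (-0.0386). It turned for miR-222-3p under library totals (0.034), when library sizes left out the top 5 miRNAs (0.0071), with title numbers summed (0.0233) and without db/db replicate 4 (0.0123). Library totals moved the median of all tested miRNAs by 0.11.

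The genotype difference of the partner ratio turned with title numbers summed (-0.0307) and ran from -0.0526 to 0.196 with single libraries left out. That of the 3p to 5p ratio turned with a pseudocount of 1 (0.11) and title numbers summed (0.39), and ran from -0.33 to 0.33 with single libraries left out. The mean log2 partner ratio was 2.05 with title numbers summed (exact permutation p = 0.125, the smallest that 4 sums allow), and 1.94 to 2.06 with single libraries left out.

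The count of miRNAs past adjusted p of 0.05, 7 of 144 here, was 13 by DESeq2 and 12 by the likelihood ratio test, each also of 144. It was 15 of 186 with title numbers summed. With single libraries left out it was 3 to 18, with 144 to 155 tested. The cell cycle list had 0 to 1 calls with single libraries left out. miR-24-3p turned positive under RLE (0.0042), library totals (0.0938) and library sizes without the top 5 (0.0613), and ran from -0.132 to 0.0932 with single libraries left out. miR-181a-5p turned under library totals (0.0354) and ran from -0.33 to 0.20. With title numbers summed 1 miRNA of the X-linked list passed, miR-92a-3p, which also has a hairpin elsewhere. The X-linked median was 0.04 under library totals and ran from -0.14 to 0.05 with single libraries left out. Of the 5 miRNAs most like miR-221-3p, 1 stayed on deviations from genotype means. Depth limits miR-221-5p most. No paired analysis was possible because the replicate numbers follow accession order and the title suffixes repeat within a genotype and name no shared unit.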
